A study of Rattus norvegicus with 4 samples.

Results

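Integrins are receptors of the cell surface that consist of an alpha and a beta subunit and bind proteins of the extracellular matrix. At focal adhesions, talins and kindlins bind the tail of the beta subunit and switch the receptor to its active state, while adaptor proteins and kinases link it to actin filaments and to signalling. In the oligodendroglial lineage, integrins such as the laminin receptors are known for roles in survival, migration and process outgrowth. Here, integrin and focal adhesion genes were followed in OLN93 cells that had lost Sox10, a transcription factor that defines this lineage. The genes were chosen by symbol, namely all symbols that start with Itga or Itgb together with 15 named genes of the adhesion machinery (Tln1, Tln2, Vcl, Pxn, Ilk, Ptk2, Parva, Parvb, Lims1, Fermt2, Zyx, Tns1, Tns3, Bcar1 and Cd44). This rule gave 44 genes over the deposited counts and the authors' table, of which 38 were among the 17327 symbols of the counts. Of these, 21 had enough counts to be tested.

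OLN93 cells are a rat oligodendroglial line that became immortal spontaneously. The 2 Sox10-deficient libraries came from clones A and B, in which CRISPR/Cas9 editing with different guide RNAs had inactivated Sox10, so that each library stands for a single clone. Both control libraries carried the Sox10-positive genotype. They are control clones by the methods but biological replicates by the labels. The labels give the same note on genome editing for all 4 libraries, and whether the controls had also passed through an editing procedure is not stated. All cells were grown in DMEM with fetal calf serum and antibiotics, and the labels do not tell whether libraries were prepared together.

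Depth was low, with between 60951 and 104017 counts per library. Levels are given as CPM, that is, counts scaled to a common library size with the TMM factors of edgeR. A count of 3, taken as the limit of detection, corresponded to between 29.1 and 48.0 CPM. Sox10 was counted 28 and 64 times in controls, 0 times in clone A and 14 times in clone B. The 12 oligodendroglial markers, Sox10 among them, summed to between 2656 and 2877 CPM in the controls and to between 1699 and 1835 CPM in the clones. Pdgfra and Cspg4, which mark precursors, had at least 16 counts in each library, whereas Mag and Mobp had none. Olig2, a defining factor of the lineage, had 7 counts in control 1 and 0 in the other 3 libraries. Schwann cell and neural crest markers summed to between 1183 and 1425 CPM in the controls and to between 306 and 523 CPM in the clones, and their part in the results was not tested. Fibroblast markers summed to between 368 and 397 CPM in the controls and to between 136 and 325 CPM in the clones, with 4 of 6 at 0. Astrocyte markers reached at most 45.3 CPM in a library, with 4 of 6 at 0. Leukocyte and microglial markers summed to between 79.3 and 204 CPM, and Ptprc, which defines leukocytes, was at 0 throughout.

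Of the 21 tested genes, Itgb8 and Itgb3bp fell in the Sox10-deficient clones and none rose after adjustment over all 2438 tested genes (edgeR's quasi-likelihood test, at least 2-fold with an adjusted p of 0.05 or less). Among all tested genes, 2.50% were lower and 1.11% were higher by this criterion, together 3.61%. With DESeq2, the same 2 genes were lower and 0 were higher. With an unadjusted p, Bcar1 joined them, so that 3 of 21 genes (14.3%) were lower by the criterion, compared with 6.97% of all tested genes, and 0 were higher, compared with 4.63%. By an unadjusted p alone, 7 of the 21 genes were lower and 1 was higher in edgeR, against 8.20% and 6.52% of all tested genes. DESeq2's unadjusted p left only 2 of them lower, Itgb8 and Itgb3bp, and 0 higher. For the 21 genes the log2 fold change had a median of -0.08, and that of all tested genes was -0.01. Clones and controls did not overlap for 7 genes that were lower and 3 that were higher in the clones, which together make 47.6% of the 21 genes compared with 43.0% of all tested genes. Itgb8, Itgb3bp and Bcar1 had fewer than 10 counts in both clones and entered the test through the controls, and Itgb5 entered it through the clones. Since these are bulk libraries, fewer cells that express a gene and less RNA per cell cannot be told apart.

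**Figure D1:**
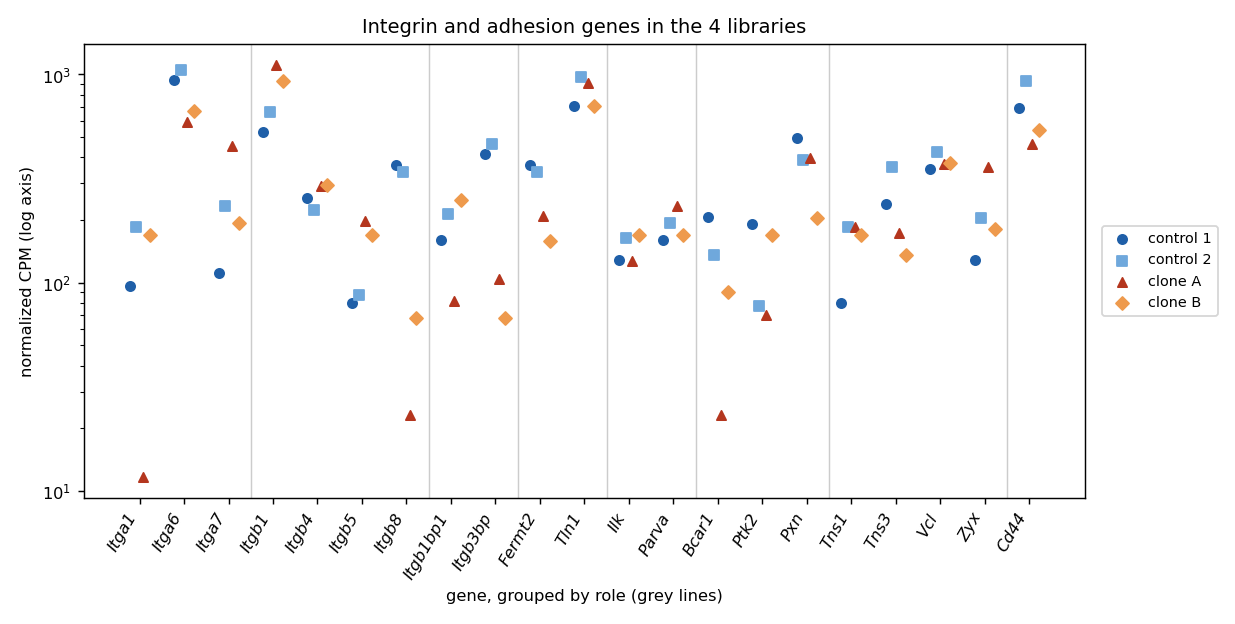
Normalized CPM (log axis) of the 21 tested genes in each of the 4 libraries, with 1 point per library and genes grouped by role. Blue points are the controls and red or orange points the Sox10-deficient clones, which lie below both controls for Itgb8 and Itgb3bp and above both for Itgb1, Itgb4 and Itgb5.

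Promoter sequence is shown for the 2 genes that fell and for Itgb1, the beta subunit with the smallest p among the genes that were higher. The 250 bases before the annotated start were taken from RefSeq on GRCr8, whereas the counts were made on rn5. Capitals mark matches to ACAAAG or ACAATG, the core hexamers that Sox proteins can bind, searched on both strands (thus also as CTTTGT and CATTGT).
Itgb8, chr6:146351246-146351495, minus strand: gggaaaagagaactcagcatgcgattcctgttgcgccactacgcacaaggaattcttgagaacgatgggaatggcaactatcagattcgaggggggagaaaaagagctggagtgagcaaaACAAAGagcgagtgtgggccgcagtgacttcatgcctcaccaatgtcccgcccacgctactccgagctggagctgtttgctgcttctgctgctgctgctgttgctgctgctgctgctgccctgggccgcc
Itgb3bp, chr5:119640975-119641224, minus strand: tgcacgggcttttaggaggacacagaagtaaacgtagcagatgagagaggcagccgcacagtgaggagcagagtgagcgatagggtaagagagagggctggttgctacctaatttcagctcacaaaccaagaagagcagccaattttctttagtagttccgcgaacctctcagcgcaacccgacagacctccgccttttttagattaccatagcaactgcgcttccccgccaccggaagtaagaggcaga
Itgb1, chr19:73602027-73602276, plus strand: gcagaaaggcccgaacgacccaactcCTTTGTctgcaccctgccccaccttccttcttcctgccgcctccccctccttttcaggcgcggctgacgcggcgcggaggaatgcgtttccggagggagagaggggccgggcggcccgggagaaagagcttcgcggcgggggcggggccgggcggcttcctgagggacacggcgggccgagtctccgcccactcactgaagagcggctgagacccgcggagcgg

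The match in Itgb8 began 130 bases before the start, and the match in Itgb1, on the other strand, began 224 bases before it. The window of Itgb3bp held none. The 33 genes of the group with a promoter in RefSeq had 37 windows, of which 5 held a match (13.5%), compared with 25.3% of all 33469 windows. They belong to Itgb8, Itgb1, Itgb7, Itga9 and Tns3. Such a match describes letters and not a binding site.

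Of the 4 tested beta subunits, Itgb8 showed the largest change. It encodes the partner of the alpha v subunit in a receptor that activates latent TGF-beta. Itgb8, listed as ENSRNOG00000006569, was counted 23 and 35 times in controls, 2 times in clone A and 6 times in clone B. Both clones lay far below both controls, and the 2 counts of clone A were under the limit of 3. In CPM, Itgb8 fell from 353 ± 20.1 to 45.6 ± 31.6 (SD, n = 2 each), for a log2 change of -2.91 (standard error, SE, 0.54, edgeR adjusted p = 0.00416). The adjusted p was 0.0628 without clone A, where the log2 fold change was -2.35, and between 0.000419 and 0.00817 when each of the other libraries was left out. With DESeq2 the log2 fold change was -2.94 (adjusted p = 0.0313).

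Itgb1, the beta subunit shared by most matrix-binding integrins, was counted 33 and 68 times in controls, 96 times in clone A and 82 times in clone B. This corresponded to 527 and 659 CPM in the controls, against 1115 and 929 CPM in the clones. The clones lay above both controls, but the log2 fold change of 0.76 (SE 0.27, 95% interval 0.18 to 1.34) did not pass adjustment, with an unadjusted p of 0.0127 and an adjusted p of 0.158 in edgeR. Its adjusted p ranged from 0.143 to 0.668 over the alternatives, and its log2 fold change from 0.63 to 0.94. Itgb5, a partner of the alpha v subunit in vitronectin receptors, was counted 5 and 9 times in controls, compared with 17 and 15 times in clones A and B. Its CPM of 79.9 and 87.2 in the controls and of 198 and 170 in the clones did not overlap. The log2 fold change of 1.11 (SE 0.57) had an edgeR adjusted p of 0.398. Itgb4, the partner of Itga6 in hemidesmosomes, had 16, 23, 25 and 26 counts in control 1, control 2, clone A and clone B, and its log2 fold change was 0.30 (95% interval -0.52 to 1.11). Clones and controls did not overlap for any of the 4 tested beta subunits, where 43.0% of all tested genes did not overlap. In the clones, 1 of the 4 was lower and 3 were higher. Itgb8 and Itgb5 entered the test only through the group where they were higher, which favours such a gap. No conclusion was therefore drawn from this share. Of the 4 differences, only that of Itgb8 passed adjustment.

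**Figure D2:**
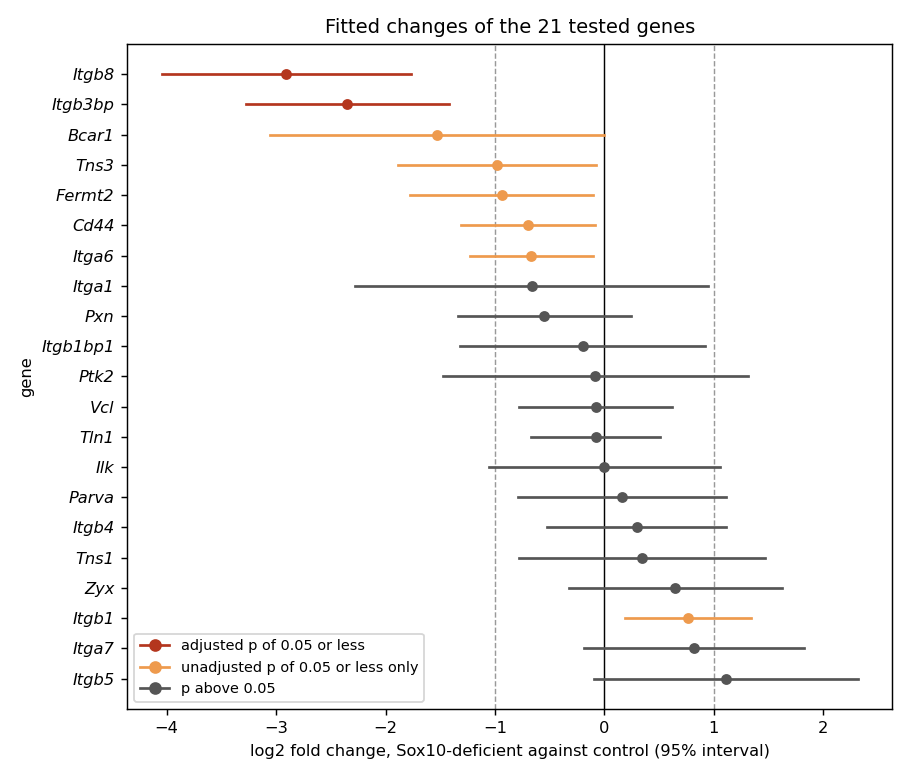
Log2 fold change of the Sox10-deficient clones against the controls for the 21 tested genes, with the 95% interval from edgeR's quasi-likelihood fit as horizontal lines and 2-fold changes as dashed lines. The intervals of Itgb8 and Itgb3bp lie wholly beyond 2-fold, whereas that of Itgb1 runs from 0.18 to 1.34 and those of Tln1 and Vcl span 0.

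The remaining beta subunits were scarcely detectable at this depth. Itgb6, which forms an epithelial receptor with alpha v, was counted 2 and 6 times in controls, compared with 6 and 2 times in clones A and B. Itgb3 had a single count in control 2, and Itgb2, the beta subunit of leukocytes, had none. Itgb7, another leukocyte subunit, had 0 counts in both controls and 4 in each clone. The mean CPM of the clones was 1.19 times the mean level of 3 counts in the controls. Both clones, at 46.5 and 45.3 CPM, nevertheless lay below the level of 3 counts in control 1 (48.0 CPM). Relative to the authors' mean, the counts of Itgb7 were 260 times the median ratio described below. On the assembly GRCr8 the gene overlaps Znf740 on the other strand, and the part of such reads was not tested.

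Among the alpha subunits, Itga6, the laminin-binding partner of Itgb1 and Itgb4, was counted 59 and 108 times in controls, 51 times in clone A and 59 times in clone B. This amounted to 943 and 1047 CPM in the controls, against 592 and 668 CPM in the clones. Both clones lay below both controls by a log2 fold change of -0.67 (SE 0.27, 95% interval -1.23 to -0.10), with an unadjusted p of 0.0231 and an adjusted p of 0.224 in edgeR. Itga7, the other laminin-binding subunit tested, was counted 7 and 24 times in controls, 39 times in clone A and 17 times in clone B. Clone B lay between the controls for this gene, and the log2 fold change was 0.82 (SE 0.48, edgeR adjusted p = 0.479). Itga1, a collagen-binding subunit, was counted 6 and 19 times in controls and 15 times in clone B, but a single time in clone A. Its log2 fold change of -0.67 had a 95% interval of -2.28 to 0.95 and turned to 0.22 when clone A was left out.

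Itga5, the fibronectin-binding subunit, did not pass the filter for the test, as it was counted 4 and 2 times in controls and 11 and 7 times in the clones. Its CPM stood at 41.7 ± 31.5 in the controls and at 104 ± 34.3 in the clones (SD, n = 2 each). When genes were not filtered, Itga5 had a log2 fold change of 1.44 (SE 0.87) with an edgeR adjusted p of 0.843. Itga11, a further collagen-binding subunit, had 0 counts in both controls but 2 and 6 in clones A and B. The mean CPM of the clones was 1.18 times the mean level of 3 counts in the controls, but clone A lay under the limit of 3 counts. Itgae had at most 5 counts in a library. Itga4, Itga8, Itga10 and the leukocyte subunits Itgad, Itgal and Itgam had 0 counts throughout, and no difference could be detected for them at this depth. Itga2, Itga2b, Itga3, Itga9 and Itgax have no row in the counts used here. The symbol Itgav has a row in neither the counts nor the authors' table, so that this gene could not be analysed.

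Itgb3bp carries an integrin in its name, but it encodes a protein of the centromere that is also a coregulator of nuclear receptors. Itgb3bp, listed as ENSRNOG00000009116, was counted 26 and 48 times in controls, 9 times in clone A and 6 times in clone B. Again both clones lay below both controls, here with clone B as the lower of the clones. The level fell from 440 ± 35.1 to 86.2 ± 25.9 CPM (SD, n = 2 each), for a log2 change of -2.35 (SE 0.44, edgeR adjusted p = 0.00425). Without clone B the log2 fold change was -2.07 with an adjusted p of 0.0700, and with DESeq2 the adjusted p was 0.0385. On GRCr8 the gene overlaps Alg6 and Efcab7, which lie on the other strand. Alg6 was counted 0, 9, 3 and 3 times in control 1, control 2, clone A and clone B, and Efcab7 3, 6, 1 and 2 times. RefSeq also lists a pseudogene of Itgb3bp on another chromosome, so that its counts are uncertain, and the part of shared reads in the decrease was not tested. Itgb1bp1, whose product binds the tail of beta 1 and holds it inactive, was counted 10 and 22 times in controls, 7 times in clone A and 22 times in clone B, and its log2 fold change was -0.20 (95% interval -1.32 to 0.92). Itgb1bp2 had a single count in control 1, and Itgbl1 had none.

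Among the genes of integrin activators, Tln1, encoding talin, was counted 44 and 100 times in controls, compared with 78 and 62 times in clones A and B, with overlapping groups and a log2 fold change of -0.08 (95% interval -0.67 to 0.51). Fermt2, encoding kindlin 2, was counted 23 and 35 times in controls, 18 times in clone A and 14 times in clone B. Its CPM of 368 and 339 in the controls and of 209 and 159 in the clones did not overlap. The log2 fold change of -0.94 (SE 0.40, 95% interval -1.77 to -0.10) had an unadjusted p of 0.0298 and an adjusted p of 0.254 in edgeR.

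In the complex of integrin-linked kinase, PINCH and parvin, no difference passed the test. Ilk had 8, 17, 11 and 15 counts in control 1, control 2, clone A and clone B, with a log2 fold change of 0.00 on rounding (95% interval -1.06 to 1.05). Parva, an actin-binding parvin, had 10, 20, 20 and 15 counts in the same order, with a log2 fold change of 0.16 (95% interval -0.79 to 1.11). Lims1, which encodes PINCH, was counted 2 and 6 times in controls, 3 times in clone A and 12 times in clone B, and Parvb had at most 2 counts, so that neither was tested. The interval of Ilk reached past 2-fold on both sides and that of Parva on the upper side.

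Among kinases and scaffolds of focal adhesions, Bcar1, the scaffold p130Cas, was counted 13 and 14 times in controls, 2 times in clone A and 8 times in clone B. Its CPM were 208 and 136 in controls but 23.2 and 90.6 in the clones, so that the groups did not overlap. The log2 fold change of -1.53 (SE 0.72) had an unadjusted p of 0.0489 and an adjusted p of 0.334 in edgeR. This value hung on single clones, since it was -0.88 with clone A left out and -2.78 with clone B left out, and DESeq2 gave an unadjusted p of 0.111. Ptk2, encoding focal adhesion kinase, was counted 12 and 8 times in controls, compared with 6 and 15 times in clones A and B, with a log2 fold change of -0.08 (95% interval -1.47 to 1.31). Pxn, encoding paxillin, was counted 31 and 40 times in controls, 34 times in clone A and 18 times in clone B, with a log2 fold change of -0.55 (95% interval -1.34 to 0.24).

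Of the actin linkers, Vcl, encoding vinculin, was counted 22 and 44 times in controls, compared with 32 and 33 times in clones A and B. The 95% interval of its log2 fold change of -0.08 (-0.78 to 0.62) lay within 2-fold on both sides, as did that of Tln1. Tns3, a tensin that binds beta subunit tails, was counted 15 and 37 times in controls, 15 times in clone A and 12 times in clone B. In CPM the controls stood at 240 and 359 and the clones at 174 and 136, and the log2 fold change was -0.98 (SE 0.43, unadjusted p = 0.0356, edgeR adjusted p = 0.284). Tns1, a related tensin, had 5, 19, 16 and 15 counts in control 1, control 2, clone A and clone B, with a log2 fold change of 0.35 (95% interval -0.78 to 1.47). Zyx, encoding the stress-sensing LIM protein zyxin, had 8, 21, 31 and 16 counts in the same order, with a log2 fold change of 0.65 (95% interval -0.32 to 1.62). Its neighbour Epha1, which overlaps it on the other strand in GRCr8, had 10, 34, 27 and 13 deposited counts although the authors' mean normalized count of Epha1 is 4.

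Cd44, a receptor for hyaluronan that also binds osteopontin, was counted 43 and 96 times in controls, 40 times in clone A and 48 times in clone B. Levels were 687 and 931 CPM in the controls and 465 and 544 CPM in the clones, which did not overlap. The log2 fold change of -0.70 (SE 0.29, 95% interval -1.31 to -0.09) had an unadjusted p of 0.0269 and an adjusted p of 0.243 in edgeR.

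Clones A and B were also compared with each other. Intervals for the ratio between the clones are exact (Clopper-Pearson) and cover counting error only. Itga1 was at 0.068 times the level of clone B in clone A (95% interval 0.0016 to 0.44). Itgb1bp1 stood at 0.33 times (0.12 to 0.79) and Lims1 at 0.26 times (0.046 to 0.95) the level of clone B. Conversely, Itga7 was 2.35 times (1.30 to 4.44), Zyx 1.99 times (1.05 to 3.89) and Pxn 1.94 times (1.06 to 3.64) as high in clone A as in clone B. These 6 genes are those whose interval did not include 1, without adjustment for the number of genes. Among the 21 tested genes there were 5 such genes (23.8%), compared with 13.3% of all tested genes. Between the controls there were 0 of 21, compared with 14.2% of all tested genes. These ratios compare 2 libraries and not conditions. For Itgb8 the ratio was 0.34 (0.034 to 1.91) and for Itgb3bp 1.54 (0.49 to 5.25), and both intervals included 1. Clone A had 0 and clone B 14 counts of Sox10.

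**Figure D3:**
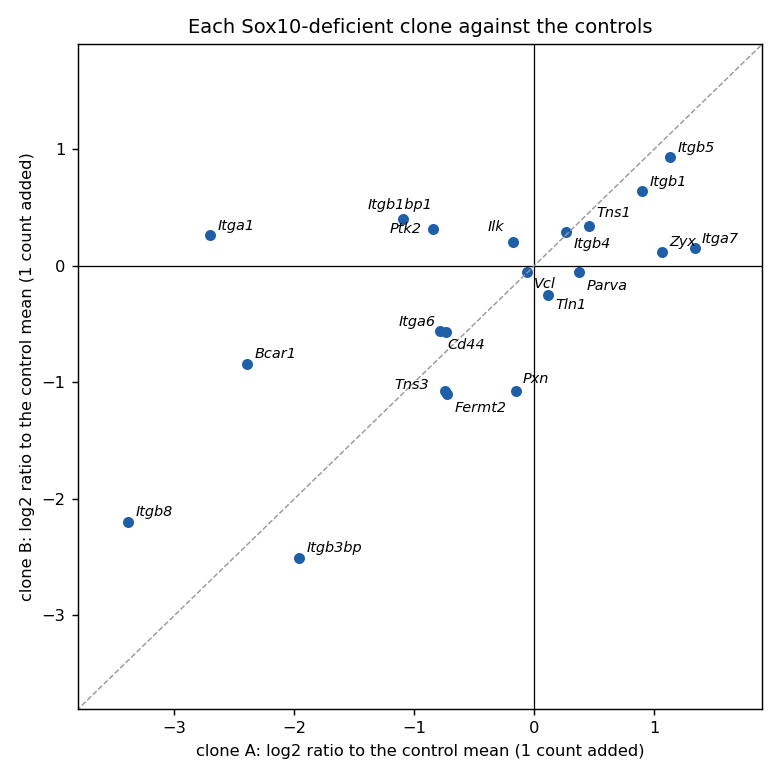
Log2 ratio of clone A (horizontal axis) and clone B (vertical axis) to the mean of the controls for the 21 tested genes, with 1 count added to each normalized count; the dashed line marks equal ratios. Itgb8 and Itgb3bp lie at the lower left for both clones, whereas Itga1 is at -2.70 in clone A and at 0.26 in clone B.

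How far the larger values depended on the libraries and on the processing is shown in the plot of 5 genes under each setting. Itgb8 ranged from -3.85 to -2.35 when a library was left out and Itgb3bp from -2.68 to -2.07. Both could not be tested when at least 10 counts were asked for in every library, since the clones fell below that minimum. Itgb5 remained between 1.00 and 1.21 with a library left out, but did not reach an adjusted p under 0.391 in any setting.

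**Figure D4:**
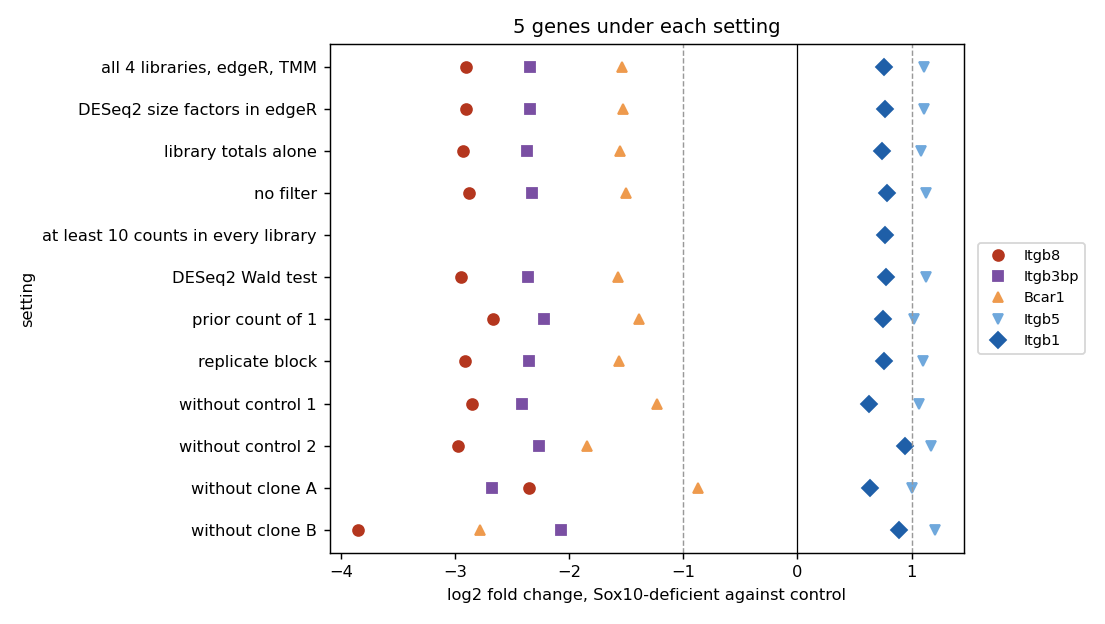
Log2 fold change of Itgb8, Itgb3bp, Bcar1, Itgb5 and Itgb1 (horizontal axis) under each setting (vertical axis), with 2-fold changes as dashed lines. Itgb8 and Itgb3bp stay beyond 2-fold in each setting that tested them, whereas Bcar1 moves to -0.88 without clone A.

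The deposited counts were also set beside the mean normalized count per gene in the authors' table, which covers all 4 libraries together and rests on far more reads. For 5353 genes with an authors' mean of at least 500, the deposited count per library was 0.384% of that mean in the median. The 24 genes of the group with such a mean ranged from 0.305 to 6.13 times this ratio. Itgb8, with an authors' mean of 3276, was at 1.31 times the ratio, Itgb1 at 1.37 times and Bcar1 at 0.91 times. In contrast, 3 genes were above 3 times the ratio, namely Itgb4 (6.13), Itgb3bp (6.05) and Itgb1bp1 (5.48). The reason for their higher share of counts was not tested.

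**Figure D5:**
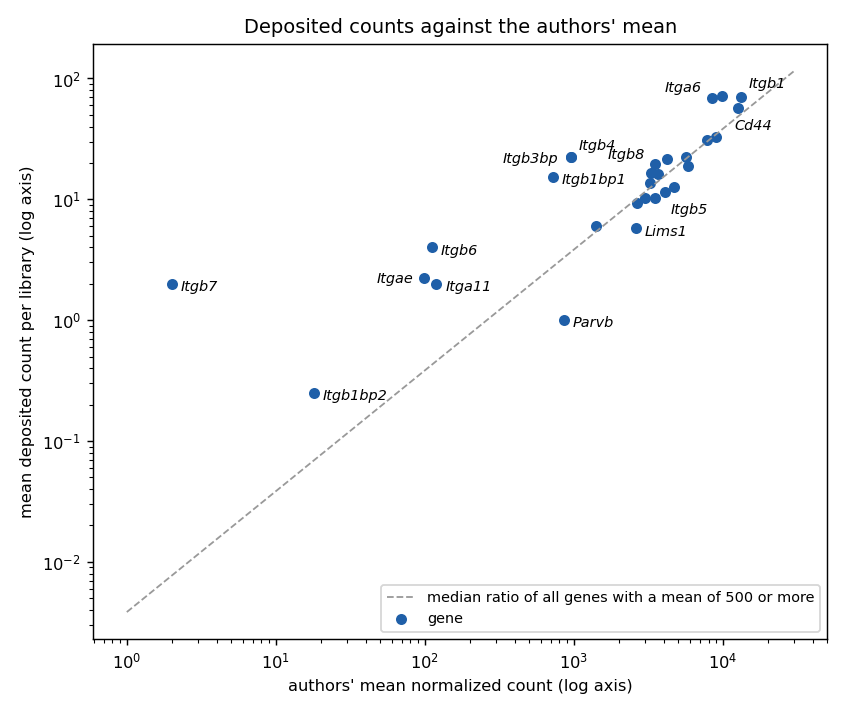
Mean deposited count per library against the authors' mean normalized count over all libraries (both log axes) for genes of the group above 0 in both, with the median ratio of all genes with an authors' mean of at least 500 as a dashed line. Itgb8 and Itgb1 lie near the line, whereas Itgb7, Itgb6, Itgb3bp, Itgb4 and Itgb1bp1 lie above it.

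Further genes of the adhesion machinery were read from a list of 64 genes that excluded those above. Of its 29 testable genes, 3 (10.3%) were lower by the unadjusted criterion and 0 were higher, where 11.6% of all tested genes passed in either direction. After adjustment 0 passed in edgeR and 0 in DESeq2, and with an unadjusted p alone 4 were lower and 3 higher in edgeR (8.20% and 6.52% of all tested genes). Lasp1, an actin-binding protein of adhesions, had 36 and 31 counts in controls against 15 and 19 in the clones, with a log2 fold change of -1.12 (edgeR adjusted p = 0.173). Sharpin, an inhibitor of integrin activation, had 23 and 30 counts against 17 and 8, with a log2 fold change of -1.18 (adjusted p = 0.204 by edgeR). For these 29 genes the log2 fold change had a median of 0.12.

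Matrix genes that encode ligands of these receptors changed in both directions. The list of 33 genes also held the hyaluronan synthases Has1, Has2 and Has3, which encode enzymes and not ligands. Of its 15 testable genes, Has3 among them, 4 were lower and 3 higher by the unadjusted criterion (6.97% and 4.63% of all tested genes). After adjustment by edgeR, 3 were lower and 3 higher (2.50% and 1.11% of all tested genes). By an unadjusted p alone, 5 were lower and 4 higher in edgeR (8.20% and 6.52% of all tested genes), which adds Ctgf and Fn1. Fn1, encoding fibronectin, had 198 and 452 counts in controls and 557 and 691 in the clones (log2 fold change 0.91, edgeR adjusted p = 0.0687). Ctgf had 26 and 51 counts in controls and 21 and 26 in the clones (log2 fold change -0.77, edgeR adjusted p = 0.303). Both were named after their values were seen. Col4a1, which encodes a collagen IV chain of the basement membrane, was counted 27 and 75 times in the controls but only 6 and 4 times in clones A and B, and it fell by 3.34 on the log2 scale (SE 0.47, edgeR adjusted p = 0.000358). With fewer than 10 counts in both clones, Col4a1 entered the test through the controls. Lamc1, a laminin chain, was counted 73 and 130 times against 35 and 23 times and fell by 1.87 (SE 0.30, edgeR adjusted p = 0.00107). Thbs1, encoding thrombospondin 1, was counted 64 and 88 times against 14 and 24 times and fell by 2.10 (SE 0.33, edgeR adjusted p = 0.00107). All 3 genes were lower in each clone than in either control. Among the other laminin chains, named here after their values were seen, Lama5 was counted 14, 31, 24 and 50 times in control 1, control 2, clone A and clone B and Lamb2 10, 10, 13 and 11 times, with log2 fold changes of 0.66 and 0.14 and edgeR adjusted p of 0.495 and 0.962. Lama4, a further laminin chain, was counted 19 and 34 times against 12 and 9 times, with a log2 fold change of -1.39 (SE 0.44, edgeR adjusted p = 0.0939). Conversely, Col6a2, a collagen VI chain, was counted 18 and 20 times against 126 and 113 times and rose by 2.54 (SE 0.31, edgeR adjusted p = 8.58e-05). Fbn1, the fibrillin of microfibrils, was counted 15 and 35 times against 69 and 74 times and rose by 1.46 (SE 0.31, edgeR adjusted p = 0.0119). Spp1, which encodes osteopontin, a ligand of Cd44 and of alpha v integrins, was counted 22 and 26 times against 208 and 355 times and rose by 3.44 (SE 0.33, edgeR adjusted p = 5.15e-06). DESeq2 gave 3 lower and 2 higher ligand genes after adjustment.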

How the data were processed

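The authors mapped reads of stranded mRNA libraries to the rat genome rn5 with STAR 2.5.1 and counted unique mappings with HTSeq, and they deposited raw counts per gene symbol for each library. The strand option and the reason why the deposited counts are far fewer than the sequenced reads are not given in the sources used here. From the authors' deposited table only the mean normalized count over all libraries, rounded and treated as a score, was used. Its other columns hold the authors' own fold changes, standard errors, Wald statistics and p-values and were not used.

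The test of the counts used edgeR 4.0.16 under R 4.3.3 (filterByExpr with a minimum count of 10, TMM, glmQLFit, glmQLFTest) with condition as the sole term, over 2438 genes, and Benjamini-Hochberg adjustment over all of them. Standard errors were derived from the F statistic, and 95% intervals from the moderated degrees of freedom. The test was checked on counts with known changes. CPM were divided by TMM-scaled library totals. Alternatives were DESeq2 1.42.0 (Wald test, no prior), its size factors or library totals in edgeR, other filters, a prior count of 1 in place of 0.125, the replicate number as a term and leaving out each library. Figures and intervals were made in Python 3.11.15 with scipy 1.17.1. Every tested gene of the group was named, as were untested genes with 10 or more counts in total and the listed adhesion and ligand genes that passed the unadjusted criterion, except 1 that is not reported here. Genes and lists were chosen with earlier results of these data known. P-values rest on the spread between these 2 libraries per group, moderated over all tested genes, and this spread may be technical. Promoters and overlapping neighbours were looked up by symbol in RefSeq tables of GRCr8.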

Additional observations from a re-analysis of the deposited data

Results flagged for a closer look

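For 6 genes of the group, the authors' table lists a mean normalized count over the 4 libraries although no row of the counts used here carries their symbols, so that they entered no comparison. This mean is 11523 for Itga3, a laminin-binding alpha subunit, and 7362 for Tln2, the second talin. It is 186 for Itga2, 23 for Itga2b, 8 for Itga9 and 7 for Itgax. These means are pooled over controls and clones and carry no error.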

How the results depend on the processing

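The decreases of Itgb8 and Itgb3bp kept their direction in each alternative that tested them. When at least 10 counts were asked for in every library, 10 genes of the group were tested, and 0 passed as lower by either criterion, because this minimum removes Itgb8, Itgb3bp and Bcar1. The median log2 fold change of these 10 genes was -0.31. Without a filter, 2 genes (Itga11 and Itgb7) were at least 2-fold higher with an unadjusted p, and 9 genes of the further adhesion list passed, against 3 with the filter. DESeq2 left 1 gene of that list. With the replicate number as a block, 1 gene of the group was lower after adjustment, since the adjusted p of Itgb8 became 0.0539 at a log2 fold change of -2.91, and the cause was not tested. The number does not mark a pairing in the labels, and same-numbered libraries had a correlation of deviations of 0.12. With each replicate left out in turn, between 1 and 2 genes were lower after adjustment, between 3 and 4 without it, and between 0 and 1 higher without it. The same fits gave between 1 and 4 genes of the further adhesion list and a median log2 fold change between -0.27 and 0.044.

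Of the 21 tested genes, 13 kept their sign in all alternatives. Ilk, with a log2 fold change of -0.0014, turned to 0.0046 with DESeq2's size factors, 0.020 without a filter, 0.016 with DESeq2's test and 0.021 with the block. With a replicate left out, Ilk ranged from -0.22 to 0.21, Itga1 from -3.49 to 0.22, Itgb1bp1 from -1.21 to 0.39, Parva from -0.075 to 0.36, Ptk2 from -0.86 to 0.62, Tln1 from -0.27 to 0.18, Tns1 from -0.051 to 1.13 and Vcl from -0.19 to 0.074. Depth limits these results, as standard errors of the 21 genes lay between 0.27 and 0.77 on the log2 scale.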
